A study of Mus musculus with 8 samples.

Results

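The question of these arrays is whether the experimental genotype moved the same genes by the same amount in AECI and AECII, the type I and type II cells of the alveolar epithelium. It was asked of each gene with 1 number, the interaction: the experimental minus control difference in AECII, minus the experimental minus control difference in AECI, in log2 units. A positive interaction means that the genotype difference was more positive in AECII than in AECI. The description covers the 13650 of 24306 named genes whose mean over the 8 arrays was above the array median of 5.177, and 33 classes of genes with a known role, of which 974 of 1011 entries were measured. A gene with several probes was read from its brightest probe.

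Both populations had been sorted by FACS from E18.5 mouse lungs, and each held a control and an experimental group, which gave 4 groups of 2 arrays. The experimental samples are labelled Fgfr2bflox, and per the title of the series Fgfr2b signalling was inhibited in cells that express Sftpc. Tamoxifen was given to the pregnant females of both genotypes on E14.5 and again on E15.5. Since the controls came from other females, litter and genotype cannot be told apart. Neither the Cre driver, the floxed exon, the control genotype and the sort gate nor how many embryos made up a sample is stated in the sources used here. The design text calls the replicates biological, but the labels do not say that they came from separate animals, so the errors measure the spread between these samples. A lower signal can come from fewer cells of a type or from less RNA per cell, and bulk arrays cannot tell these apart.

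Fgfr2b is the epithelial isoform of the FGF receptor Fgfr2. In the developing lung it receives mesenchymal ligands such as Fgf10 and Fgf7 and signals through ERK, which drives growth of the distal epithelium and induces its own feedback inhibitors of the Sprouty, Spred and Dusp families. AECI are the flat cells of gas exchange and AECII are the cuboidal cells that make surfactant. Both arise from the distal epithelium late in gestation, while the airway gives rise to ciliated and club cells.

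The labelled populations carried their markers. The mean of 9 AECI markers was 13.1 to 13.6 on the AECI arrays and 9.75 to 10.6 on the AECII arrays, and the mean of 9 AECII markers was 12.7 to 12.9 and 13.7 to 13.8. The AECII markers were thus bright in both populations. Replicate arrays correlated at r = 0.951 and 0.960 in AECI and 0.977 and 0.978 in AECII, and the median replicate SD of genes above the array median was 0.234 to 0.248 in AECI and 0.154 to 0.165 in AECII. By low Xist and high Eif2s3y and Uty, AECI control replicate 1 and AECII control replicate 2 had a male pattern and the 6 other arrays a female one, so each control group was mixed and each experimental group was not. The mean of the 5 measured erythroid markers read 10.93 and 10.88 on the AECI control arrays, 6.89 and 7.92 on the AECI experimental arrays, 11.65 and 11.62 on the AECII control arrays, and 9.18 and 8.50 on the AECII experimental arrays. It was lower in the experimental arrays of both populations.

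No gene had an interaction past the threshold. By limma with Benjamini-Hochberg adjustment over all 24306 genes, the lowest adjusted p was 0.538, and 0 genes (0.0%) were called at 0.05 in either direction. At an unadjusted p under 0.05 there were 410 genes above the array median with a positive interaction (3.0%) and 710 with a negative one (5.2%), 8.21% in all. Over all genes these were 874 (3.6%) and 1221 (5.02%), 8.62% in all. The counts above the median changed with the fit, again with 0 genes called. They were higher, at 767 and 1064, with a prior that followed the mean-variance trend. Where only genes above the median were fitted they were 706 and 1015. They were lower for both signs with a robust prior (385 and 681), array weights (403 and 685) and a replicate block (363 and 600). With the mean of all probes of a gene they were 474 and 500. The genes named below are therefore described by their values, and none of them is a call. A second description counts a gene as separated where the 4 array-by-array genotype differences in AECII all lay on one side of the 4 in AECI. This held for 2049 genes (15.0%) with a positive and 2008 (14.7%) with a negative interaction, 29.7% in all, and for 12.5% and 12.4% of all genes, 24.8% in all. The median interaction over the 13650 genes was 0.06, its SD across genes 0.71 and its median standard error 0.44, and 54.2% of the genes were positive and 45.8% negative, against 51.8% and 48.2% over all genes. The counts at unadjusted p under 0.05 above the median changed in both directions when single arrays were left out. They were lower for both signs without any 1 of the AECII arrays, and higher for both signs without replicate 1 of either AECI group. Without replicate 2 of either AECI group, more genes were positive and fewer negative.

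The genotype differences of the populations correlated weakly. Across the 13650 genes, which are not independent replicates, the difference in AECI and the difference in AECII correlated at r = 0.214, with no array in common. The sample labels do not say whether the populations shared animals. The SD of the differences was 0.61 in AECI and 0.51 in AECII, beside a median standard error of 0.31. Of the 410 genes with a positive interaction at unadjusted p under 0.05, 363 had differences of opposite sign, with a median of -0.75 in AECI and 0.56 in AECII. Of the 710 with a negative one, 614 had opposite signs, with medians of 0.77 and -0.54. Opposite signs were found in 6228 of all 13650 genes. These selected genes are described and not tested, since the interaction chose them.

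**Figure D1:**
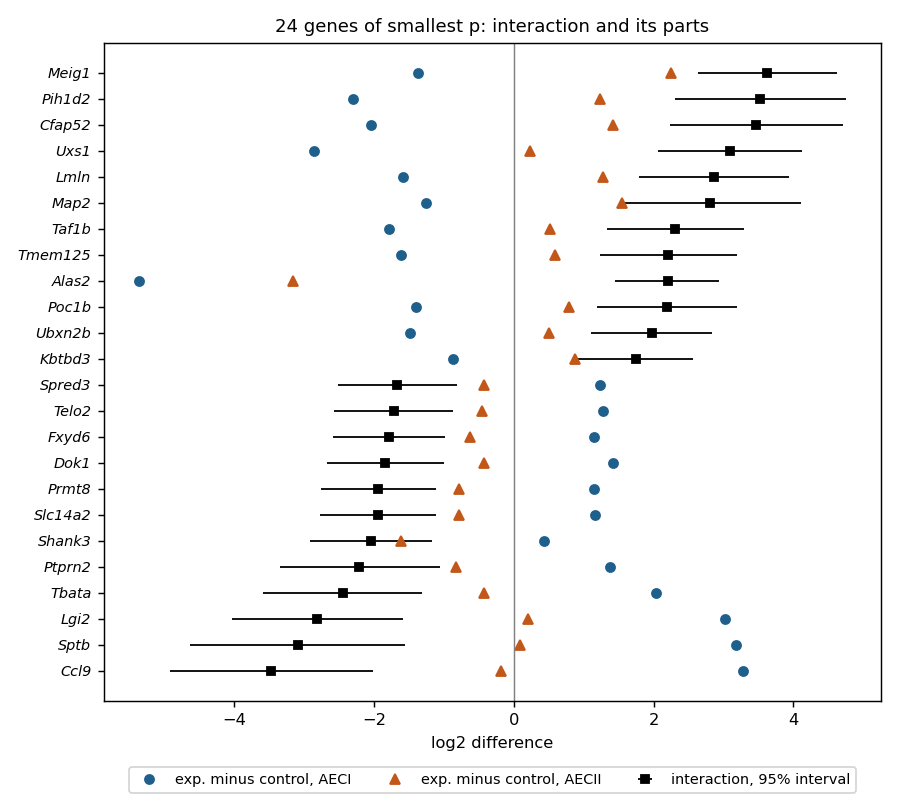
Interaction of the 12 genes of smallest p in each direction (squares, with 95% limma intervals) and its parts, the experimental minus control difference in AECI (circles) and in AECII (triangles), on a log2 axis. In 21 of 24 genes the parts lie on opposite sides of 0, and of the others Alas2 has both below it.

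Genes of motile cilia and centrioles stood among the 12 genes of smallest p with a positive interaction. Meig1, which is needed for the sperm flagellum, read 4.14 and 3.60 on the AECI control arrays, 2.32 and 2.68 on the AECI experimental arrays, 6.66 and 6.70 on the AECII control arrays, and 8.79 and 9.07 on the AECII experimental arrays. It was thus lower in experimental AECI, where it was dim throughout, and higher in experimental AECII, with no overlap of the genotypes in either population. Its interaction was 3.62 (SE 0.41, 95% interval 2.63 to 4.62; adjusted p = 0.538 by limma). Cfap52, a protein of ciliary microtubules, read 5.76 and 5.98, then 3.32 and 4.31 in AECI, and 6.81 and 6.67, then 8.24 and 8.08 in AECII, control before experimental, for an interaction of 3.47 (SE 0.51). Pih1d2, of a protein family that assists the assembly of axonemal dyneins, had an interaction of 3.53 (SE 0.51) from differences of -2.30 and 1.23. Its experimental AECI arrays, at 3.05 and 2.72, were below the lower quartile of spots (3.073), and its dimmer probe gave 1.75. The dimmer probe of Cfap52 gave 0.33, with AECI arrays at 1.87 to 2.45, also below that quartile. The centriole protein Poc1b had 2.19, but a second, dimmer probe of Poc1b gave -0.42.

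Uxs1, the enzyme that makes UDP-xylose for proteoglycan synthesis, had its genotype difference in AECI by its brightest probe. It read 8.35 and 8.33 in control AECI against 5.30 and 5.65 in experimental AECI, and 7.35 and 8.03 against 7.92 and 7.93 in AECII, for an interaction of 3.09 (SE 0.43). Of 3 further Uxs1 probes, the brighter pair gave 1.34 and 1.40 and the dimmest -1.16. In that pair experimental arrays were below controls in AECI and above them in AECII, so the difference was not confined to AECI. The brighter of the pair read 6.82 and 7.14, then 6.58 and 6.24 in AECI, and 7.81 and 6.85, then 8.02 and 8.16 in AECII. Alas2, the first enzyme of haem synthesis in red cell precursors, differed in both populations in the same direction. It read 9.11 and 9.03, then 3.64 and 3.77 in AECI, and 9.23 and 9.17, then 6.05 and 6.02 in AECII. The differences were -5.36 and -3.16, and the interaction of 2.20 (SE 0.31) is the smaller drop in signal in AECII. The erythroid markers given above moved with it, and their part in it was not tested.

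The other positive genes by that rule had interactions of 1.75 to 2.86. They were Lmln, a metallopeptidase, at 2.86, the microtubule-associated protein Map2 at 2.81, Taf1b, a subunit of the RNA polymerase I initiation complex, at 2.31, Tmem125 at 2.21, Ubxn2b, a cofactor of the p97 ATPase, at 1.98, and Kbtbd3 at 1.75. In all 6 the genotype difference was negative in AECI, from -1.79 in Taf1b to -0.87 in Kbtbd3, and positive in AECII, from 0.50 in Ubxn2b to 1.55 in Map2. Of the 6 dimmer probes of Map2, 3 gave a positive and 3 a negative interaction. Dimmer probes gave smaller values of the same sign for Tmem125, at 0.14, and Taf1b, at 0.69 and 0.07.

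Among the 12 genes of smallest p with a negative interaction, Ccl9, a chemokine, read 4.99 and 4.37 in control AECI, 7.61 and 8.32 in experimental AECI, 7.73 and 6.90 in control AECII, and 7.30 and 6.96 in experimental AECII. Control AECI alone was low, the AECII genotypes overlapped, and the interaction was -3.47 (SE 0.60). Sptb, the beta spectrin of the red cell membrane, had the same shape, with 4.18 and 5.44 in control AECI against 8.0 and 7.99 in experimental AECI, and 6.91 and 6.71 against 6.63 and 7.18 in AECII, and an interaction of -3.09 (SE 0.63). Its direction in AECI was opposite to that of Alas2. Lgi2, a secreted leucine-rich repeat protein, had differences of 3.02 in AECI and 0.21 in AECII and an interaction of -2.81 (SE 0.51). Dimmer probes gave much smaller values, at -0.23 for Sptb and -0.28 and -0.13 for Lgi2.

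Shank3, a scaffold protein best known at synapses, had its larger difference in AECII. It read 5.02 and 5.42, then 5.69 and 5.60 in AECI, and 6.15 and 5.96, then 4.54 and 4.32 in AECII, for differences of 0.43 and -1.62 and an interaction of -2.05 (SE 0.36). Spred3, which inhibits signalling from Ras to ERK, was the brightest of these genes. It read 9.52 and 9.25, then 10.51 and 10.73 in AECI, and 9.54 and 9.80, then 9.16 and 9.31 in AECII, so that experimental arrays were above controls in AECI and below them in AECII. Its interaction was -1.67 (SE 0.35), with -1.03 and 0.70 from its dimmer probes, the latter at a mean level of 2.71, below the lower quartile of spots (3.073).

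The other negative genes were Tbata at -2.45, Ptprn2, a protein of dense-core vesicles, at -2.21, the urea transporter Slc14a2 at -1.95, the arginine methyltransferase Prmt8 at -1.94, Dok1, an adaptor of tyrosine kinases, at -1.84, Fxyd6, a regulator of the sodium pump, at -1.78, and Telo2, which stabilises kinases of the DNA damage response, at -1.72. All 7 were positive in AECI, from 1.15 to 2.03, and negative in AECII, from -0.83 to -0.42. Both dimmer probes of Telo2 were positive, at 1.13 and 0.48. A second probe of Fxyd6, of nearly the same mean level (6.9 against 6.91), gave 0.35. By that probe experimental arrays were above controls in both populations, at 6.73 and 7.37 against 5.05 and 4.81 in AECII. Of the 34 further probes of the 24 genes, 20 had the sign of the brightest one, a count that takes no account of size. The most negative interaction above the array median was that of Gdf9, an oocyte growth factor singled out after its values were seen, at -5.62 (SE 1.20), and its control AECI arrays read 4.34 and 1.80 against 8.84 and 7.74 in experimental AECI.

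**Figure D2:**
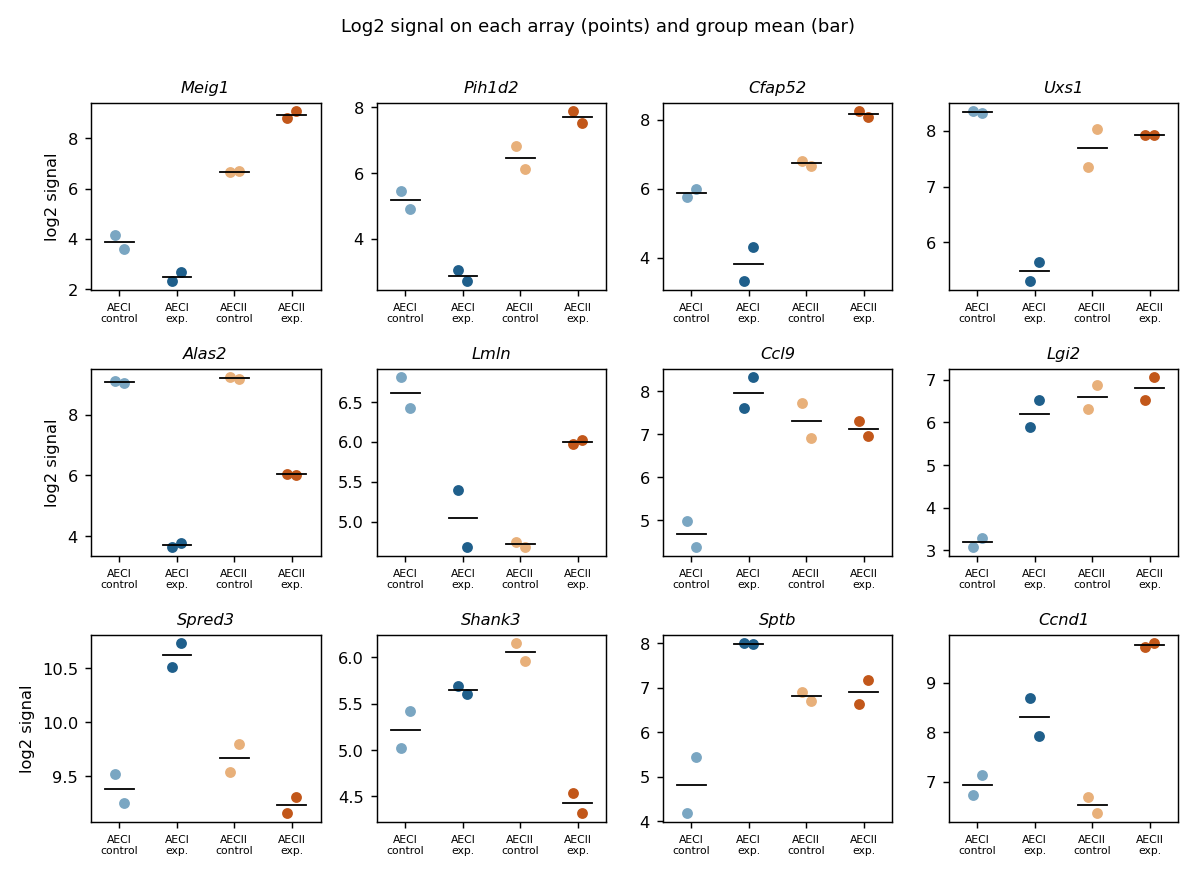
Log2 signal on each of the 8 arrays (points) with the group mean (bar) for 12 genes, with AECI to the left of AECII and controls to the left of experimental arrays; each panel has its own vertical range. Meig1, Pih1d2 and Cfap52 are lower in experimental than in control AECI and higher in experimental than in control AECII, Ccl9, Lgi2 and Sptb are low in control AECI alone, and Ccnd1 is higher in experimental cells of both populations.

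The class with the most negative median was that of mitosis. Of 49 measured genes, 34 were above the array median, 28 of these had a negative interaction (82.4%, against 45.8% of all genes above the median), and the class median was -0.80, from medians of 1.0 in AECI and 0.33 in AECII. Experimental cells thus had higher signals of most of these genes in both populations, and the difference was larger in AECI: the AECI difference was positive in 32 of 34 genes and the AECII difference in 25. Of the class, 16 genes were separated with a negative interaction (47.1%, against 14.7%) and 0 with a positive one, and 6 had an unadjusted p under 0.05 (17.6%, against 5.2%). The class median stayed between -0.94 and -0.58 when any 1 array was left out and was -0.71 without the arrays of male pattern. None of the members passed the adjusted threshold.

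The 6 genes were Nek2, a centrosomal kinase, Ube2c and Cdc20, which serve the anaphase-promoting complex, Kif2c, a kinesin that takes microtubules apart, Bub1, a kinase of the spindle checkpoint, and Aurkb, the kinase of the chromosomal passenger complex. Cdc20, Bub1 and Aurkb were named after their values were seen, because they complete that count. Cdc20 read 8.49 and 8.61 in control AECI, 9.42 and 9.68 in experimental AECI, 9.10 and 9.25 in control AECII, and 9.27 and 9.18 in experimental AECII. The genotypes were apart in AECI and overlapped in AECII, for differences of 1.0 and 0.05 and an interaction of -0.95 (SE 0.33). Bub1 read 6.06 and 6.04, then 7.20 and 8.08 in AECI, and 7.73 and 7.19, then 7.45 and 7.73 in AECII, for an interaction of -1.46 (SE 0.52). A second probe of Cdc20 gave -1.43 and a second probe of Bub1 -1.19.

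Ube2c had 1.68 in AECI and -0.12 in AECII, with an interaction of -1.80 (SE 0.61). Nek2 had 3.35 and 1.28, with control AECI at only 1.79 and 3.35, and an interaction of -2.08 (SE 0.72). Kif2c and Aurkb differed in shape, with the larger difference in AECII. Kif2c had 0.51 and -1.06, and its dimmer probe gave an interaction of 1.02 in place of -1.57. That probe had a mean level of 3.33, close to the lower quartile of spots (3.073). Aurkb had 0.20 and -0.71. Mki67, the nuclear antigen of cycling cells, had 0.99 and 0.12 and an interaction of -0.87 (SE 0.42).

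Promoters of mitotic genes are known to carry CCAAT boxes and a cell cycle element called CHR, through which they are repressed outside of division. In the RefSeq promoters (GRCm38.p6, 250 bases before to 50 after the start), searched on both strands, CCAAT was found in 25 of the 28 mitosis genes with an entry (89.3%), against 41.1% of all 27025 genes with a promoter. The CHR letters TTTGAA or TTCGAA were found in 23 of 28 (82.1%), against 21.7%. Among S phase genes CCAAT was in 54.8% and the CHR letters in 22.6% of 31. These are matches of letters and not measured sites. Printed here are the promoters of Cdc20 (chr4:118437294-118437593, minus strand), Bub1 (chr2:127831810-127832109, minus strand) and Ube2c (chr2:164769679-164769978, plus strand), 3 genes with an interaction at unadjusted p under 0.05. Both kinds of match are in capitals, read on either strand.
Cdc20: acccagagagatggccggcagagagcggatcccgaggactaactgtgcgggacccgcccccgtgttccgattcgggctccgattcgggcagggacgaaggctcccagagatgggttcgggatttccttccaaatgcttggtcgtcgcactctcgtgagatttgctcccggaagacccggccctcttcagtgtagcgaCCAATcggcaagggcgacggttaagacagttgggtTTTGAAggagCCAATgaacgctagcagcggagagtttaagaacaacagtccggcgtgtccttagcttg
Bub1: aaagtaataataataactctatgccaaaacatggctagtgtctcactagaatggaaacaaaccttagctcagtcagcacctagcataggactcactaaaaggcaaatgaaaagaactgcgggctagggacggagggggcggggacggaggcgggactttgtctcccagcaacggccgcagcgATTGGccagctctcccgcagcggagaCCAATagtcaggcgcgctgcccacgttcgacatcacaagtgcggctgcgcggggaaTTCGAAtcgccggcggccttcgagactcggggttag
Ube2c: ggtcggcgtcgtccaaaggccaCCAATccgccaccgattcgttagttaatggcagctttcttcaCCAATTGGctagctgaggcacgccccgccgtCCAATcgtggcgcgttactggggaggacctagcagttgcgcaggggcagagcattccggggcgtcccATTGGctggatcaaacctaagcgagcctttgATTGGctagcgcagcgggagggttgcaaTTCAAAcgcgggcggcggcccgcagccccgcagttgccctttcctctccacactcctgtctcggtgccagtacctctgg

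Genes of DNA replication differed less. Of 42 measured S phase genes, 34 were above the array median and 23 of these were negative (67.6%), with a median of -0.21 from 0.46 in AECI and 0.31 in AECII. Mcm2, a subunit of the replicative helicase, was the only S phase gene at unadjusted p under 0.05, with differences of 1.96 and 0.28 and an interaction of -1.69 (SE 0.69). Tk1 and Dut, enzymes of nucleotide supply, had -1.14 and -0.90, and 3 of the 4 dimmer probes of Tk1 and the dimmer probe of Dut were positive. The Dut probe had a mean level of 3.4, close to the lower quartile of spots (3.073). The cyclin Ccnd1, which acts at entry into the cycle and is listed among FGF and ERK targets, went the other way. It read 6.73 and 7.13, then 8.69 and 7.92 in AECI, and 6.70 and 6.37, then 9.72 and 9.79 in AECII. Experimental cells were higher in both populations, by 1.37 and 3.22, and the interaction was 1.85 (SE 0.48). Beside these values, the mean of 5 mesenchymal markers was 8.84 and 9.40 in control and 10.03 and 9.80 in experimental AECI, and 8.61 and 8.19 against 8.56 and 8.62 in AECII. Their part in the cell cycle values was not tested.

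The class of motile cilia had the most positive median in the fit of all 8 arrays. It did not keep that rank without the arrays of male pattern, where endothelial (1.23) and interferon genes (0.44) were among those above it, nor over all measured members, where multiciliated regulators had 0.74 and endothelial genes 0.62. Of 56 measured axoneme and basal body genes, 39 were above the array median, 25 of these were positive (64.1%, against 54.2%), and the median interaction was 0.54, from 0.40 in AECI and 1.15 in AECII. The AECII difference was positive in 36 of 39 genes, and in 29 of the 39 (74.4%, against 33.2% of all genes above the median) every experimental AECII array was above every control one. The AECI difference was positive in 25. In AECI these genes were dim: the control mean of 19 of the 39 was below the array median there, against 0 in AECII. The filter used the mean over all 8 arrays, so members dim in AECI could pass it through their AECII signal. Meig1 and Fam183b, for example, were below the array median of 5.177 on every AECI array. The shares of this class and those of all genes above the median are thus not like for like. Of the class, 8 genes were separated with a positive interaction (20.5%, against 15.0%) and 2 with a negative one, and 6 had an unadjusted p under 0.05 (15.4%, against 3.0%). The median was 0.26 without the arrays of male pattern. It was 0.20 without AECI experimental replicate 1 and 0.20 without AECII control replicate 2, 0.29 without AECII experimental replicate 1, and 0.78 without replicate 2 of either experimental group, and 0.85 without AECII control replicate 1.

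The 6 genes were Meig1 and Cfap52, given above, Cfap126, Rsph9, Fam183b and Tppp3, of which the last 3 were named after their values were seen. Cfap126, which positions basal bodies, read 8.32 and 7.84, then 6.92 and 7.16 in AECI, and 9.79 and 9.62, then 11.27 and 10.49 in AECII, for an interaction of 2.21 (SE 0.49). Its dimmer probe gave 2.10. Rsph9, of the radial spoke head, had -0.73 in AECI and 1.15 in AECII, with an interaction of 1.88 (SE 0.44) and -0.26 from a dimmer probe. Fam183b, an axonemal protein, had 2.23 (SE 0.65), but its AECI arrays read 2.27 to 3.59, around the lower quartile of spots (3.073), so that this value rests on its AECII difference of 1.76. Tppp3, a tubulin-binding protein of ciliated cells, had 1.77 (SE 0.60).

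Other ciliary genes did not share this pattern. Foxj1, the transcription factor of motile cilia, read 5.19 and 5.88, then 7.06 and 7.48 in AECI, and 10.21 and 9.83, then 11.60 and 10.72 in AECII, so that experimental arrays were above controls in both populations. Its interaction was -0.59 (SE 0.58). The filament protein Tekt1 had 2.50 and 1.34, with -1.16 (SE 0.96), and the outer arm dynein Dnah5 had 2.02 and 1.68, with -0.34 (SE 1.13). Both were picked as contrasts after their values were seen, and their AECI differences are uncertain. Tekt1 read 3.80 and 1.64 in control AECI, the latter below the lower quartile of spots (3.073). Dnah5 read 4.05 and 4.29 in control against 4.84 and 7.54 in experimental AECI, so its AECI difference rests largely on 1 array. The mean of 6 ciliated markers was 5.57 and 4.92 in control and 6.13 and 6.57 in experimental AECI, and 8.94 and 8.57 against 10.3 and 9.86 in AECII, and 2 of the 6 were below the lower quartile of spots (3.073) on at least 1 array. Their part in the class values was not tested. Of 13 regulators of the multiciliated programme above the array median, 8 were positive, with a median of 0.27 that was -0.03 without the arrays of male pattern and between 0.037 and 0.61 when 1 array was left out. Deup1, which amplifies centrioles, had 2.46 (SE 1.16) and -0.37 from a dimmer probe, and Rfx3, a factor that binds ciliary promoters, 0.64 (SE 0.32).

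Factors of the RFX family read X-box motifs in ciliary promoters, and GTTGCC is the conserved arm of that motif. GTTGCC, searched on both strands, was found in 15 of the 32 ciliated genes with a RefSeq promoter (46.9%), against 14.1% of all genes with a promoter. Printed here is the promoter of Fam183b (chr11:58801911-58802210, minus strand, GRCm38.p6), which holds 2 such matches, in capitals.
Fam183b: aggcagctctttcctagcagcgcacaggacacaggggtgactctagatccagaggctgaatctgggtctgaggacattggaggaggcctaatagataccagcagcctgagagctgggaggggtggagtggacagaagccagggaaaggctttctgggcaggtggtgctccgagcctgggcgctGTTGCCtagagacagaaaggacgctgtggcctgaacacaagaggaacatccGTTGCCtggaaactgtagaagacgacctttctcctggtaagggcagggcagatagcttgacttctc

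**Figure D3:**
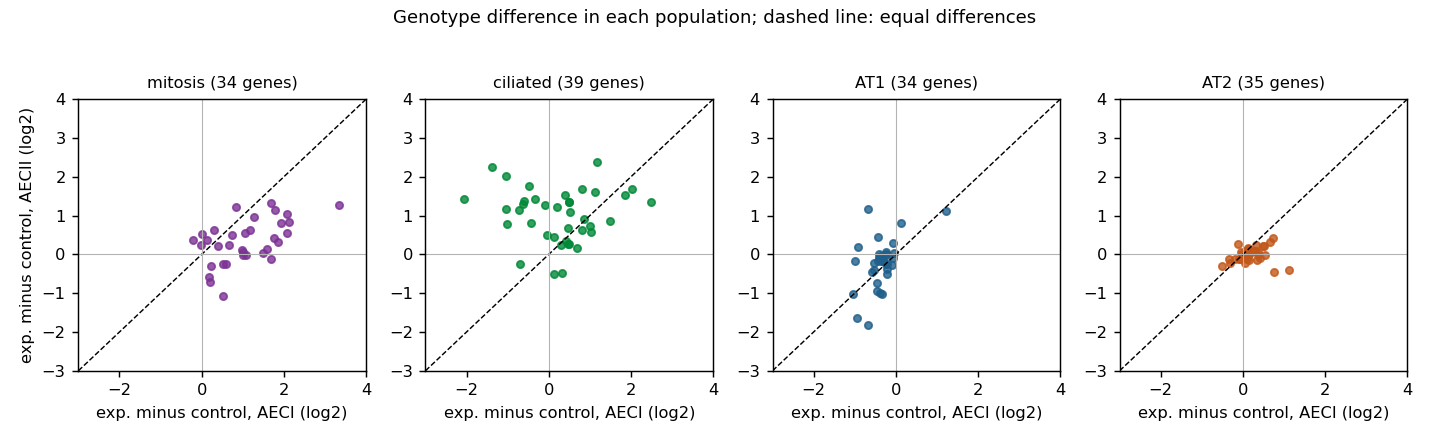
Experimental minus control difference in AECI (horizontal, log2) and in AECII (vertical, log2) for the members above the array median of the mitosis, ciliated, AT1 and AT2 classes; 1 point is 1 gene and the dashed line marks equal differences. Mitosis genes lie mostly below the line (28 of 34), ciliated genes spread widely in AECI and lie above 0 in AECII (36 of 39), and AT1 and AT2 genes lie closer to the line.

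Marker genes of the sorted cells themselves had class medians nearer to 0 than those of mitosis and cilia. Of 34 AT1 genes above the array median, the AECI difference was positive in only 2 and the AECII difference in 9, with medians of -0.37 and -0.17, and in 26 genes (76.5%, against 20.5% of all genes above the median) every experimental AECI array was below every control one. The interaction was positive in 21 of the 34 (61.8%), with a median of 0.15 that was -0.02 without the arrays of male pattern and between -0.01 and 0.35 when 1 array was left out. It was below 0 without AECI experimental replicate 2 or AECII experimental replicate 1. Ager, the receptor that marks AECI, had an interaction of -0.00 (SE 0.30) and the homeodomain protein Hopx one of 0.31 (SE 0.39).

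Among the AT1 genes the lowest p belonged to Mab21l4, Rtkn2 and Scnn1g. Mab21l4 read 10.68 and 10.98, then 10.42 and 9.91 in AECI, and 7.06 and 6.82, then 8.35 and 7.90 in AECII, for an interaction of 1.85 (SE 0.43). Rtkn2 read 12.09 and 11.94, then 11.36 and 11.34 in AECI, and 8.61 and 8.29, then 6.71 and 6.54 in AECII. It was lower in experimental cells of both populations, and more so in AECII, with an interaction of -1.15 (SE 0.34), while its 3 dimmer probes gave -0.13, 0.21 and -0.42. Scnn1g, the gamma subunit of the epithelial sodium channel, had -0.44 and 0.44, for 0.88 (SE 0.35). Its AECII arrays, at 3.72 to 4.34, were all below the array median of 5.177, so its AECII difference lies among dim values.

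Of 35 AT2 genes above the array median, 25 had a negative interaction (71.4%, against 45.8%), but the median was small, at -0.13, from 0.13 in AECI and -0.00 in AECII. Separated genes numbered 8 with a negative (22.9%, against 14.7%) and 0 with a positive interaction. The median lay between -0.22 and -0.06 when 1 array was left out, and was -0.06 without the arrays of male pattern. Leaving out AECI experimental replicate 1 gave -0.22 and AECII experimental replicate 2 gave -0.20, and leaving out AECII control replicate 2, AECI experimental replicate 2 or AECII experimental replicate 1 gave -0.06, -0.07 and -0.09. Ank3, an ankyrin of the lateral membrane, read 8.72 and 8.52, then 9.49 and 9.27 in AECI, and 10.96 and 10.85, then 10.40 and 10.52 in AECII, for an interaction of -1.20 (SE 0.33). A second Ank3 probe of nearly the same mean level (9.76 against 9.84) gave 0.13, and the dimmer ones gave -0.65 to -0.07. Cd74, the invariant chain of MHC class II, had -1.52 (SE 0.66) and Lpcat1, which makes surfactant phosphatidylcholine, -0.55 (SE 0.33). Sftpc read 15.45 to 15.88 on all arrays, close to the highest value of the table, and had an interaction of -0.06 (SE 0.31).

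The targeted receptor and its pathway had no common sign. Fgfr2 read 11.03 and 11.37, then 11.07 and 11.38 in AECI, and 12.60 and 12.62, then 12.24 and 12.33 in AECII. By this probe the AECI genotypes overlapped, and the AECII experimental arrays were 0.32 below control, for an interaction of -0.35 (SE 0.35). A second, dimmer probe had another shape. It read 9.30 and 9.42, then 9.80 and 9.88 in AECI, and 10.70 and 10.79, then 10.77 and 10.73 in AECII. The genotypes were thus apart in AECI and overlapped in AECII, for an interaction of -0.47. The place of either probe relative to the floxed part is not known here, so this is no check of the deletion. Of 20 FGF ligands and receptors above the array median, 10 were positive, with a median of -0.02, and Fgf3, a ligand, had the lowest p, with 0.08 in AECI and -1.38 in AECII and an interaction of -1.46 (SE 0.51). Of 29 FGF and ERK targets, 14 were positive, with a median of -0.03. The transcription factor Etv5, a known target, had -0.25 (SE 0.39) and the feedback inhibitor Spry2 -0.03 (SE 0.40). The 3 members at unadjusted p under 0.05 were Spred3 and Ccnd1, given above, and the convertase Pcsk6. Of these, 1 was positive (3.45%, against 3.0% of all genes above the median) and 2 were negative (6.9%, against 5.2%), near those shares. Pcsk6 had 2.14 in AECI and -0.03 in AECII and an interaction of -2.17 (SE 0.61), with -0.89 and 0.95 from its dimmer probes. The latter probe had a mean level of 3.38, close to the lower quartile of spots (3.073).

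**Figure D4:**
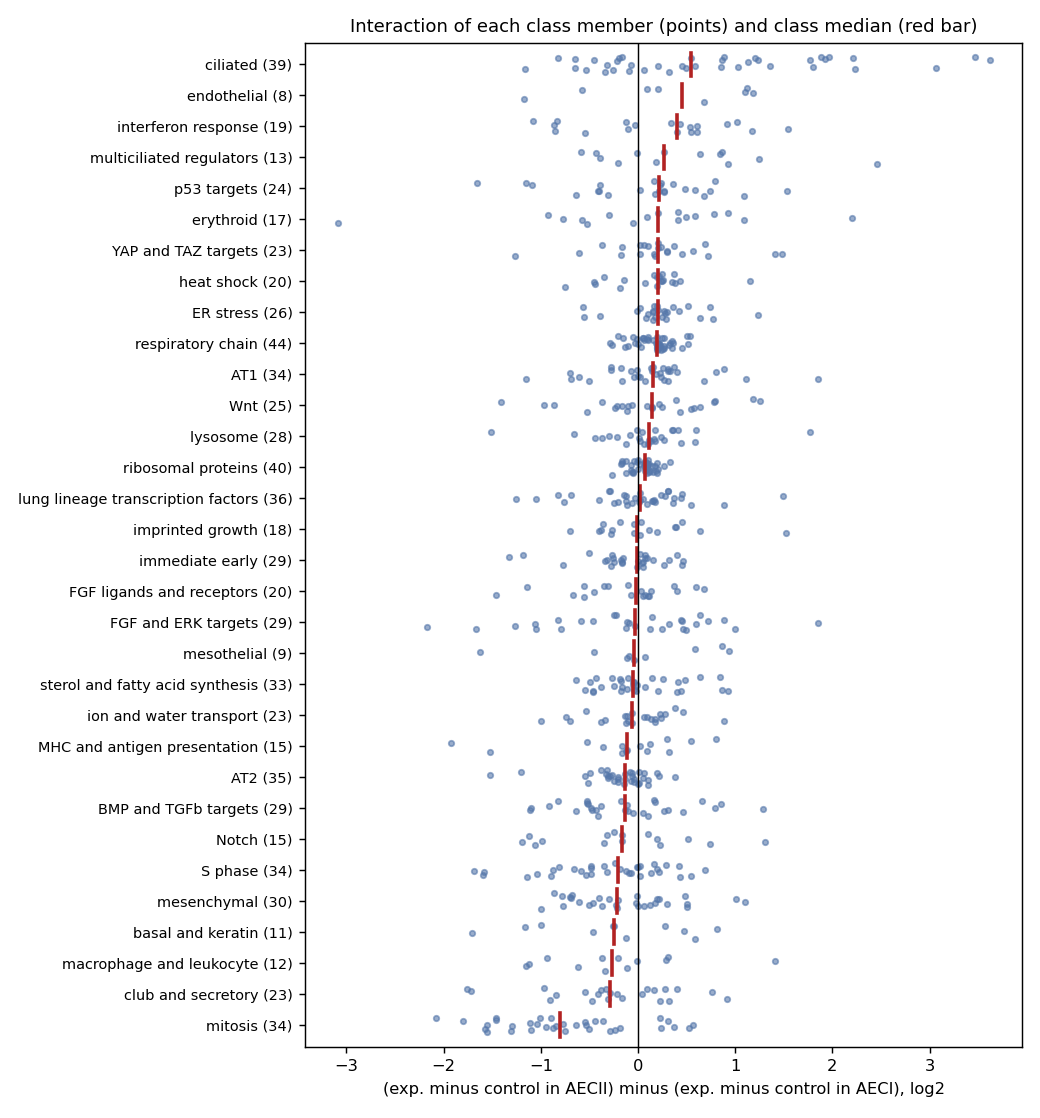
Interaction in log2 units (horizontal) of each member above the array median (points) in the 32 classes with at least 8 such members, with the class median (red bar) and the number of members in parentheses; points are shifted vertically at random. With all 8 arrays mitosis (-0.80) lies lowest and ciliated (0.54) highest, the latter at 0.26 and below endothelial genes (1.23) without the arrays of male pattern.

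Signalling classes held single genes with opposite differences rather than a common direction. In the Notch class, the receptor Notch3 had 0.81 in AECI and -0.25 in AECII (interaction -1.06, SE 0.33) and its target Hes5 0.75 and -0.44 (-1.19, SE 0.38), whereas Notch1 had -0.66 and 0.65 (1.31, SE 0.51). In the Wnt class, the ligand Wnt5a had 0.04 and -0.93 (-0.97, SE 0.33), its dimmer probes being positive, and the receptor Lgr6 1.79 and 0.38 (-1.41, SE 0.47). The Wnt target and inhibitor Axin2 had -0.81 and 0.44 (1.25, SE 0.47). Of 29 BMP and TGFb genes above the array median, 18 were negative, among them Ltbp1, which binds latent TGFb, at -1.11 (SE 0.34), the BMP inhibitor Nog at -1.10 (SE 0.43) and the BMP target Id2 at -0.82 (SE 0.37), which had 0.12 from its second probe. The second brightest probe of Ltbp1 gave 0.79, and the dimmer ones gave -0.67 and -0.98. The class medians were -0.16, 0.14 and -0.13 for Notch, Wnt, and BMP and TGFb, and each changed sign with 1 array. Without AECI control replicate 2 the Notch median was 0.015 and the Wnt median -0.12, the Wnt median was -0.076 without AECI experimental replicate 2, and without AECI control replicate 1 the BMP and TGFb median was 0.056. It was 0.011 without the arrays of male pattern, and the Notch median was 0.219 with the mean of all probes of a gene.

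Of 23 targets of YAP and TAZ above the array median, 18 were positive (78.3%), with a median of 0.21 from -0.32 in AECI and -0.16 in AECII, and 5 were separated with a positive interaction (21.7%, against 15.0%) and 0 with a negative one. The number positive was 11 to 18 when 1 array was left out. The median was -0.008 without AECII experimental replicate 1, 0.13 without AECI control replicate 2, 0.14 without AECI experimental replicate 2 and 0.42 without AECII experimental replicate 2. Ajuba, a LIM protein that restrains the Hippo kinases, read 8.70 and 8.72, then 8.27 and 7.55 in AECI, and 4.52 and 4.62, then 5.37 and 5.12 in AECII, for an interaction of 1.48 (SE 0.43). Tissue factor F3 had 0.69 (SE 0.35) and Wwtr1, which encodes TAZ, 0.57 (SE 0.34), both with the larger difference in AECI, at -1.05 and -0.58.

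In airway classes, 14 of 23 club and secretory genes above the array median had a negative interaction, with a median of -0.29. Its parts were mostly positive, with medians of 0.6 in AECI and 0.3 in AECII. The AECI difference was positive in 18 of the 23 genes and the AECII difference in 14. In 12 of them (52.2%, against 33.2% of all genes above the median) every experimental AECII array was above every control one. Fmo1, a monooxygenase, had -0.11 in AECI and -1.87 in AECII (-1.76, SE 0.69), and Bpifa1, a secreted airway protein, 0.62 and -0.35 (-0.97, SE 0.33). The club cell secretoglobin Scgb1a1 had 0.96 and 0.63 (-0.33, SE 0.63). Among 11 basal cell genes and keratins, Krt17 had 0.79 and -0.92 (-1.71, SE 0.57), and the simple epithelial keratin Krt8 -0.60 and 0.21 (0.81, SE 0.33). The imprinted gene Slc38a4, an amino acid transporter, had -0.26 and 1.26 (1.52, SE 0.51), while the imprinted growth factor Igf2 had 1.27 and 0.58 (-0.70, SE 0.43). Among lineage transcription factors, Nfix had 1.16 and 0.41 (-0.76, SE 0.33).

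Of 44 nuclear subunits of the respiratory chain, all above the array median, 34 were positive (77.3%), 30 to 38 when 1 array was left out, with a median of 0.19 from 0.11 in AECI and 0.26 in AECII. Cox8a, of complex IV, had 0.51 (SE 0.31) and Uqcrc2, of complex III, 0.50 (SE 0.32). Separated subunits numbered 9 with a positive (20.5%, against 15.0%) and 1 with a negative interaction (2.27%, against 14.7%). Chaperones and the unfolded protein response had 22 of 26 positive (84.6%), 18 to 22 when 1 array was left out, and a median of 0.21, and ranged from -0.57 to 1.23, the latter in Asns, asparagine synthetase (SE 0.51). Heat shock genes had 14 of 20 positive and a median of 0.21 (range -0.75 to 1.15), and ribosomal proteins 27 of 40 and 0.07 (range -0.27 to 0.33). The median over all genes above the array median, 0.06, is part of each of these values. Ebp, an enzyme of sterol synthesis, had 0.00 in AECI and 0.93 in AECII (0.93, SE 0.34), but its dimmer probe gave -0.37, and the sterol and fatty acid class had a median of -0.05.

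Among p53 targets, with 16 of 24 positive, the desmosomal protein Perp had -0.20 and 0.89 (1.09, SE 0.33), whereas Apaf1, the scaffold of the apoptosome, had 1.24 and -0.43 (-1.66, SE 0.60) and the phosphatase Tigar 1.10 and 0.01 (-1.09, SE 0.42). Both dimmer probes of Apaf1 were positive. The immediate early gene Nr4a3 had 0.63 and -0.70 (-1.33, SE 0.42), and its dimmer probes were positive too. Of 19 interferon-stimulated genes above the array median, 11 were positive and 8 negative, with a median of 0.40 from -0.46 in AECI and -0.32 in AECII. That median was -0.30 without AECII control replicate 1, -0.03 without AECI control replicate 1 and up to 0.74 without another array, so it has no settled sign. The nucleic acid sensor Zbp1, of lowest p in the class, had -0.10 and -0.94 (-0.85, SE 0.35), whereas the RNA sensor Ddx58 had 1.17 (SE 0.54) and Ifit2 1.54 (SE 0.80). The AECII arrays of Ifit2, at 3.31 to 4.99, were all below the array median of 5.177.

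Markers of other tissues that a sort could hold were read as well. Of 8 endothelial genes above the array median, 6 were positive, with a median of 0.45 from -0.03 in AECI and 0.37 in AECII, which was 0.10 without AECI control replicate 2, 0.29 without AECI experimental replicate 1, 0.68 without AECI experimental replicate 2, 1.16 without AECI control replicate 1 and 1.23 without the arrays of male pattern. The mean of 5 endothelial markers was 5.08 and 5.16 in control and 4.51 and 4.62 in experimental AECI, and 5.23 and 5.30 against 5.81 and 5.76 in AECII. The genotypes were thus apart in opposite directions, at levels close to the array median. Egfl7 had an interaction of 1.12 (SE 0.48) and the junction protein Esam 1.10 (SE 0.56), and Mmrn2, of the endothelial matrix, -1.17 (SE 0.60).

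Of 30 mesenchymal genes above the array median, 19 were negative, with a median of -0.22 from 0.53 in AECI and 0.17 in AECII. It was 0.071 without AECI control replicate 1, -0.07 without the arrays of male pattern, 0.027 with the mean of all probes of a gene, and down to -0.33 when another array was left out. Col3a1, a fibrillar collagen, read 9.40 and 9.75, then 10.87 and 10.78 in AECI, and 8.15 and 8.27, then 8.75 and 8.62 in AECII, for an interaction of -0.78 (SE 0.34), with 1.45 and 1.62 from probes below the lower quartile. Fbn1, of microfibrils, had -1.0 (SE 0.47), with positive values from its dimmer probes, and the pericyte receptor Pdgfrb 1.01 (SE 0.53). Mesothelial Upk3b had 1.13 in AECI, while its AECII arrays, at 2.03 to 3.76, were near the bottom of the table, so no AECII difference or interaction is read from it. Efemp1, a matrix protein, had an interaction of 0.94 (SE 0.36). Of 5 neuroendocrine genes above the array median, 3 were positive, with a median of 0.09. The peptide-processing enzyme Cpe had 0.59 and 2.27 (1.68, SE 0.76), and the synaptic proteins Syp and Snap25 had -1.71 and -0.08 (1.63, SE 0.78) and 0.44 and -0.06 (-0.50, SE 0.34). Of 12 macrophage and leukocyte genes, 9 were negative, among them the complement gene C1qb at -0.94 (SE 0.41). Of 17 erythroid genes, 10 were positive, and the haemoglobin gene Hbb-b1, picked after its values were seen, had -4.49 in AECI and -4.08 in AECII, for an interaction of 0.41 (SE 0.72), smaller than its error. Hbb-b1 has near-identical copies, so its reading is uncertain.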

How the data were processed

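RNA of sorted AECI and AECII was amplified and hybridised to single-colour arrays (2 µg of Cy5-labelled cDNA, per the labels). The values deposited by the authors are log2 signals, normalized between arrays: once sorted, the values of the 8 arrays matched each other to within 0.0056. The submitters' processing notes name limma with no version, while scanner, background correction and build are not stated in the sources used here. Base 2 was taken from the range of the values. Of 62976 spots, 43941 (69.8%) had 1 gene symbol, 0 several and 19035 none, and the symbols were brought up to date with the RefSeq table of GRCm38.p6 (33704 by accession, 9767 current, 463 by synonym, 7 kept, 1887 changed). The spot of highest mean stood for each of the 11040 genes with several spots. Detection flags were not used, so nothing is said of background at dim spots, and precision is limited by the number of arrays.

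limma 3.58.1 (R 4.3.3) was fitted with 4 group means over all 8 arrays, eBayes without trend (4 residual and 2.26 prior degrees of freedom) and Benjamini-Hochberg adjustment over all genes; intervals are at 95%. The script was tested on simulated data. Class medians are descriptions with no test. Named genes were, above the array median and leaving out predicted, clone, olfactory and sex-linked genes, the 12 of smallest p in each direction (no gene passed adjusted p 0.05), up to 3 per class by p, and a set of markers (Fgfr2, Sftpc, Ager, Hopx, Foxj1, Scgb1a1, Mki67, Alas2, Etv5 and Spry2); the text says where a gene was picked with its values known. Members and lists were chosen with earlier results of these data known. Alternatives were another centring, other probe rules, filters, priors, array weights, a replicate block, a term for the male pattern, and leaving out arrays.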

Additional observations from a re-analysis of the deposited data

How the results depend on the processing

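The absence of calls was common to the 20 alternatives: 0 genes passed an adjusted p of 0.05 under each, and the lowest adjusted p ranged from 0.281 with a prior that followed the mean-variance trend to 0.888 without AECII experimental replicate 1. With a replicate block, which would pair same-numbered samples, 0 genes were called (363 genes above the array median positive and 600 negative at unadjusted p under 0.05, lowest adjusted p 0.596). The deviations of same-numbered arrays correlated at -0.18 to 0.115 between groups, so the numbers were not taken to pair the samples. The lowest value was that between the AECI and AECII controls. Crossed numbers in these controls would also put the arrays of male pattern together. Whether these samples shared animals is not given by the labels and was not tested. With the numbers crossed in the AECII controls, an alternative chosen after seeing the data, the count of calls was also 0.

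Most changes of sign came from the choice of probe, and the cause was not tested. With the probe of median brightness in place of the brightest one, the interaction was -0.42 for Poc1b, 0.35 for Fxyd6, 0.091 for Tbata, 1.13 for Telo2, 0.21 for Rtkn2, 1.02 for Kif2c, 0.26 for Tk1, 0.91 for Dut, -0.26 for Rsph9, -0.37 for Deup1, 1.45 for Col3a1, 0.49 for Fbn1, 0.17 for Wnt5a, 0.51 for Apaf1, -0.37 for Ebp, 1.12 for Nr4a3, 0.12 for Id2, -0.51 for Ddx58 and 0.14 for Ager. With the mean of all probes it was 0.042 for Tk1, 0.002 for Dut, 0.77 for Col3a1, 0.078 for Wnt5a, 0.034 for Apaf1 and 0.042 for Nr4a3. The probes of median brightness of Kif2c, Dut and Col3a1 had mean levels of 3.33, 3.4 and 2.7, around or below the lower quartile of spots (3.073). Of 107 further probes of the 103 named genes, 64 had the sign of the probe used. With each array centred on its median, Ager had 0.026 and Spry2 0.004.

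When 1 array was left out, the interaction ranged from -1.69 to 1.01 for Dnah5, -1.0 to 0.35 for Scgb1a1, -0.15 to 0.027 for Sftpc, -0.06 to 0.053 for Ager, -0.27 to 0.22 for Spry2 and -0.19 to 1.01 for Hbb-b1. No other named gene changed its sign in these fits. The class median ranged from -0.01 to 0.35 for AT1, -0.22 to -0.055 for AT2 and 0.20 to 0.85 for ciliated genes. Of all 33 class medians, 18 changed sign when 1 array was left out, the interferon median ranging from -0.30 to 0.74 and the mesenchymal one from -0.33 to 0.071. Without the arrays of male pattern the class median of AT1 was -0.024, and it was -0.06 for AT2 and 0.26 for ciliated genes, and with the mean of all probes -0.21 for AT2 and 0.84 for ciliated genes. With the probe of median brightness it was -0.21 for AT2. The mitosis median stayed within its replicate SD under all alternatives. Where 1 array was left in a group, its spread was taken from the other groups. With 2 arrays per group the median standard error of an interaction was 0.44, and many ciliated genes in AECI were below the array median.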
